A study of Mus musculus with 4 samples.

Results

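The variable (Trav) and joining (Traj) segments of the T cell receptor alpha locus were followed in single-cell RNA-seq of mouse thymocytes. All features whose symbol starts with Trav or Traj were taken, which gave 188 of the 32285 features in the count matrices, 128 Trav and 60 Traj. The rule uses the symbols alone. There were 4 libraries, 2 from control mice with loxP-flanked alleles of Tox4 and no Cre (genotype label Tox4;F/F) and 2 from conditional knockout (cKO) mice that carry the Lck-Cre transgene in addition (label Tox4;F/F;Lck+). Tox4 encodes a regulatory subunit of a nuclear protein phosphatase 1 complex that acts on RNA polymerase II. By the study's methods internal exons of Tox4 are floxed, and Cre is driven by the proximal promoter of Lck, which is active in T cell precursors from a double negative stage on and not in the other cells of the thymus. The labels give no age or sex, and the mice of both groups carry the floxed alleles. Whole thymocyte suspensions were used without sorting.

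The alpha chain of the receptor is put together by V(D)J recombination. The Rag1 and Rag2 recombinase joins 1 of the V segments to 1 of the J segments in CD4+CD8+ double positive (DP) thymocytes, and the joined exon is spliced to the constant gene Trac. Recombination at this locus starts among the V segments nearest to the J cluster. A cell can replace a first join with one that uses a V segment farther upstream and a J segment farther downstream, until the receptor is positively selected, Rag1 and Rag2 are shut off, or the cell dies. The V segments farthest from the J cluster are therefore known for late use. Some V segments, written with dv in their names, are also used by the delta chain, whose own segments lie inside the alpha locus.

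In GRCm38, the build of the files, the members lie on the plus strand of chromosome 14. The Trav features run from 52427928 to 53977678 (1550 kb), the Traj features from 54155005 to 54218842 (63.8 kb), and Trac from 54220521 to 54224206. A gap of 177 kb parts the last Trav from the first Traj. Tox4 itself lies 132 kb upstream of the first Trav, at 52279146 to 52296401, so the floxed gene and the receptor segments sit on 1 chromosome. The 128 Trav features, in the order of their starts, were split into a distal group of 43 (chr14:52427928-53042891, Trav1 to Trav8d-2), a middle group of 43 (chr14:53047287-53454784, Trav16d-dv11 to Trav6-4) and a proximal group of 42 (chr14:53461099-53977678, Trav7-4 to Trav23). By the annotation 108 Trav are V genes and 20 are V pseudogenes, and 51 Traj are J genes and 9 are J pseudogenes. The locus holds repeated blocks of V segments, and 39 Trav features carry a d and 34 an n after the family number for the block they lie in.

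Members of 1 V family differ by few bases, which is why their sequences are shown first. The last 90 bases of the 3 Trav16 genes, read from the GENCODE M21 transcripts of GRCm38, differ at 2 positions, given in capitals. Trav16d-dv11 and Trav16n belong to the middle group and Trav16 to the proximal group.
Trav16d-dv11: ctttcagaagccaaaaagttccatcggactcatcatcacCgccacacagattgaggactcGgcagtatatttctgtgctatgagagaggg
Trav16n: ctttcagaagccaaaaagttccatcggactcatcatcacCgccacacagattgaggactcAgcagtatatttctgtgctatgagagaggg
Trav16: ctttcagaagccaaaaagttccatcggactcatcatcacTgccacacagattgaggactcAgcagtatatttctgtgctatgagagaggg

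Trav16d-dv11 and Trav16 differ at 2 of these 90 bases, and Trav16n differs from each of them at 1. The same stretch is shown for the 5 Trav14 genes with a count, with the 7 positions at which they vary in capitals. The other 4 Trav14 genes share all their windows with another gene and had no count. Trav14d-3-dv8 and Trav14n-3 are of the middle group, and the other 3 are proximal. Any pair of the 5 differs at 2 to 4 of the 90 bases.
Trav14d-3-dv8: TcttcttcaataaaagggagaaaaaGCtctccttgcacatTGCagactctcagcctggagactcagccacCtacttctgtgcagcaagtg
Trav14n-3: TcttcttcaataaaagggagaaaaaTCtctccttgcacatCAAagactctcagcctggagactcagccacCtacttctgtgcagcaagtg
Trav14-1: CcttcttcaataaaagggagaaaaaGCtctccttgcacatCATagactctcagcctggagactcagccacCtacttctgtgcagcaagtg
Trav14-2: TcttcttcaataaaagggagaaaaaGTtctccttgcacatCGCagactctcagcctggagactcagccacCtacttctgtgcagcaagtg
Trav14-3: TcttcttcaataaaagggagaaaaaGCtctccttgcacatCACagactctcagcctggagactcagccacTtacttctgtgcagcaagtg

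The 3′ ends of the exons are shown for the pair of most distal segments, Trav1 and Trav2, and for a pair of proximal segments, Trav13-4-dv7 and Trav21-dv12, since their values are given below. The capitals mark TANNNCTG, searched on the sense strand, which holds the tyrosine and cysteine codons near the end of most V exons. It was found in the last 60 bases of 123 of the 128 Trav features (96.1%).
Trav1: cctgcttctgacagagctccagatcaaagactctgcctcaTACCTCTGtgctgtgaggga
Trav2: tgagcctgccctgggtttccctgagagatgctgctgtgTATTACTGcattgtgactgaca
Trav13-4-dv7: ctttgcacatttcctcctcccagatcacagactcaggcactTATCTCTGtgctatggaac
Trav21-dv12: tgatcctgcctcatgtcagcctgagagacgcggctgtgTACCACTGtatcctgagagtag

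Traj49, the one joining segment with any count, is 62 bases long. The capitals mark TTTGG, found on the sense strand in 42 of the 60 Traj features (70.0%), which can code for the phenylalanine and glycine that joining segments share.
Traj49: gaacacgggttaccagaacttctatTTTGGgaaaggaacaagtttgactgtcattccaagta

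The libraries held 11790 to 17347 droplets and 42716798 to 62007453 unique molecular identifiers (UMIs, 1 per captured RNA molecule). More than 10% mitochondrial UMIs were found in 48.3% and 46.1% of the droplets of control replicate 1 and cKO replicate 1, against 20.6% and 23.1% in the other libraries. After filtering, 33414 cells were kept, 5648 to 12027 per library, with median UMIs of 2493 to 3445. Any pair of libraries shared 10 to 33 barcodes among kept cells. Cells were clustered without any receptor segment, and clusters were named from marker genes: double negative (DN, 639 cells), proliferating DP (DPbla, 5268), DP undergoing rearrangement (DPre, 16292, marked by genes that include Rag1, Rag2, Dntt, Arpp21 and Aqp11), DP under selection (DPsel, 5568), CD4 single positive (CD4SP, 1711) and CD8 single positive (CD8SP, 900) cells. The CD8SP cluster was led by Nkg7, Itgae, Il2rb, Cxcr6 and Klrd1, genes shared with other cytotoxic and innate-like lymphocytes. Of DPre, 9436 cells formed cluster 1, led by Xrra1, BB031773 and Smoc1, and 5783 formed cluster 2, led by Tubb2b, BC028471 and Capn3. A further 1073 DPre cells formed a cluster of low UMI content (median 1063). Such a cluster (median 839 UMIs) also held 1724 of the DPbla cells, 26.7% and 28.3% of them in the controls and 39.2% and 32.6% in the cKO libraries. Tox4 was at 71.8 and 74.3 CPM (a feature's UMIs scaled to a common total per library and cell group) in DP cells of the controls and at 56.3 and 61.0 in those of the cKO mice (adjusted p = 0.127). Tags at the 3′ end lie outside the floxed exons, so they do not check the deletion.

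V segments were seen in few cells and joining segments in almost none. The kept cells held 8358 Trav UMIs against 72309 of Trac, or 11.6 per 100, and 5376 cells (16.1%) had at least 1. Of these cells 3810 (70.9%) had a single Trav UMI, and the most in a cell was 12. Of the 128 Trav features 83 had a UMI, 45 had none and 78 had 10 or more. The 60 Traj features together had 4 UMIs, all of Traj49. They lay in 4 cells, 1 in each control library, none in cKO replicate 1 and 2 in cKO replicate 2. The other 59 Traj were at 0 in every library, where a count of 0 allows up to 3 UMIs over the kept cells. No cell had both a Trav and a Traj UMI, so the use of J segments along their cluster, and the pairing of V with J, gave no value at this depth. Libraries of this kind are read from the 3′ end of the mRNA, beyond the joined V and J exon, and the annotated Traj features are only 29 to 72 bases long.

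The zeros among the Trav features followed the uniqueness of their sequence. Each feature was read in windows of 90 bases, and a window was unique if no transcript of another gene held it. The 39 features with no unique window were all at 0 UMIs. Of the 66 with some unique windows 62 had a UMI, and of the 23 in which every window was unique 21 had one. The features without a unique window numbered 19 in the distal, 19 in the middle and 1 in the proximal group, and the median share of unique windows was 5.52%, 14.5% and 88.3%. Reads that match several features equally are not counted by Cell Ranger, so the distal and middle groups are undercounted to an unknown degree.

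**Figure D1:**
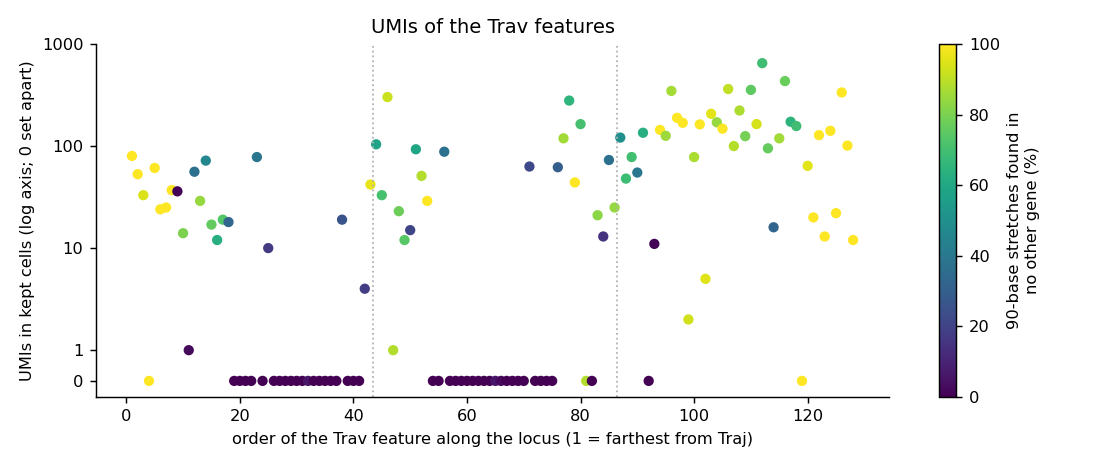
UMIs of each Trav feature over all kept cells (vertical axis, log scale, features at 0 drawn at the bottom) against its place along the locus (horizontal axis, 1 to 128, distal to proximal), coloured by the percent of its 90-base windows that no other gene holds. The 39 features without a unique window all sit at 0, and 40 of the 42 proximal features have a UMI.

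Of all Trav UMIs, 740 (8.85%) fell to the distal, 1614 (19.3%) to the middle and 6004 (71.8%) to the proximal group. Counts of UMIs are given as they are, not per length. The 10 features with the most UMIs held 41.8% of the total, and 8 of these were proximal. They were Trav6-7-dv9 (649 UMIs), Trav16 (433), Trav14-2 (362), Trav4-4-dv10 (355), Trav13-1 (347), Trav21-dv12 (335), Trav14d-3-dv8 (302), Trav16n (279), Trav3-3 (223) and Trav12-2 (207). Only Trav14d-3-dv8 and Trav16n of these lie in the middle group. The 10 dv features held 26.3% of all Trav UMIs.

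Trav RNA was lowest in DN and DPbla cells and higher in DPre and DPsel cells. The summed Trav level in control replicates 1 and 2 and cKO replicates 1 and 2 was 39.6, 27.8, 28.2 and 25.1 CPM in DPbla (40.7, 28.3, 29.0 and 25.9 without the DPbla cluster of low UMI content). In DPre it was 96.4, 97.8, 72.9 and 78.6 CPM, and in DPsel 108, 103, 86.2 and 83.9. It was 82.1, 86.5, 65.0 and 67.1 CPM in CD4SP and 66.1, 50.4, 47.4 and 47.6 in CD8SP. DPbla lay below DPre in every library, and both cKO libraries lay below both controls in DPre, DPsel, CD4SP and CD8SP. With each cell of at least 1000 UMIs thinned to that depth, the share of cells with a Trav UMI was 0.313% in DN and 2.86% in DPbla, then 7.21% in DPre and 8.74% in DPsel. It was 6.53% in CD4SP and 5.45% in CD8SP. Cells of other lineages gave 3.32% (mononuclear phagocytes), 4.48% (B cells) and 4.0% (epithelial cells). Cells below 1000 UMIs were left out of the thinned shares. These were 0 of 639 DN, 1074 of 5268 DPbla, 541 of 16292 DPre, 526 of 1129 phagocytes and 301 of 701 epithelial cells. The unthinned shares were 7.36%, 12.4%, 15.5%, 23.7%, 24.7% and 25.6% in the T lineage stages, in the same order, and 4.69%, 7.19% and 6.42% in the others, at median depths of 2594 to 8580 and 1069 to 3455 UMIs. The thinned interval of DPbla (2.38% to 3.41%) overlaps those of phagocytes (2.04% to 5.08%), B cells (1.66% to 9.49%) and epithelial cells (2.30% to 6.41%). Trac, the constant region, was found in 22.1% of the thinned phagocytes, 34.8% of the epithelial cells and 8.96% of the B cells, against 18.0% of DPbla and 5.63% of DN. B cells thus had a lower Trac share than DPbla, with a Trav share of 4.48% against 2.86%. The cells of other lineages are no reference free of alpha chain RNA. Unthinned, DPbla (95% interval 11.5% to 13.3%) lay above their values, at a deeper median of 6186.5 UMIs. The part of free RNA in the DN and DPbla values was not tested.

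By the proximal share, the libraries of DPbla lay apart from those of DPre. Those of DPre and DPsel overlapped, as did those of DPsel and CD4SP. The proximal share of Trav UMIs fell from DPbla (mean of the libraries 91.2%) to DPre (72.1%) and to DPsel (65.9%), and was 61.6% in CD4SP and 75.5% in CD8SP. In DPbla it was 92.9%, 89.2%, 88.6% and 94.0% in control 1, control 2, cKO 1 and cKO 2. In DPre it was 71.1%, 65.7%, 75.9% and 75.9%. The DPbla and DPre libraries did not overlap, and the difference within a library was 19.1 ± 4.76 percentage points (SD over 4 libraries). In DPsel the values were 67.3%, 61.7%, 68.1% and 66.7%, so the share fell from DPre to DPsel in all 4 libraries, with a difference of -6.18 ± 2.69 points. The mean fall was larger with a mitochondrial limit of 5%, as given below. The middle share rose by 6.89 ± 3.57 points, in 4 of 4 libraries, and the distal share changed by -0.709 ± 2.46 points, up in 2 libraries and down in 2. Pooled over libraries, the DPbla share of 91.4% (exact binomial 95% interval 89.4 to 93.1) rests on 965 UMIs, and phagocytes gave 80.2% (69.9 to 88.3) from 81 UMIs. Such intervals cover counting error only, since UMIs of 1 cell are not independent. No p was computed for these shares.

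**Figure D2:**
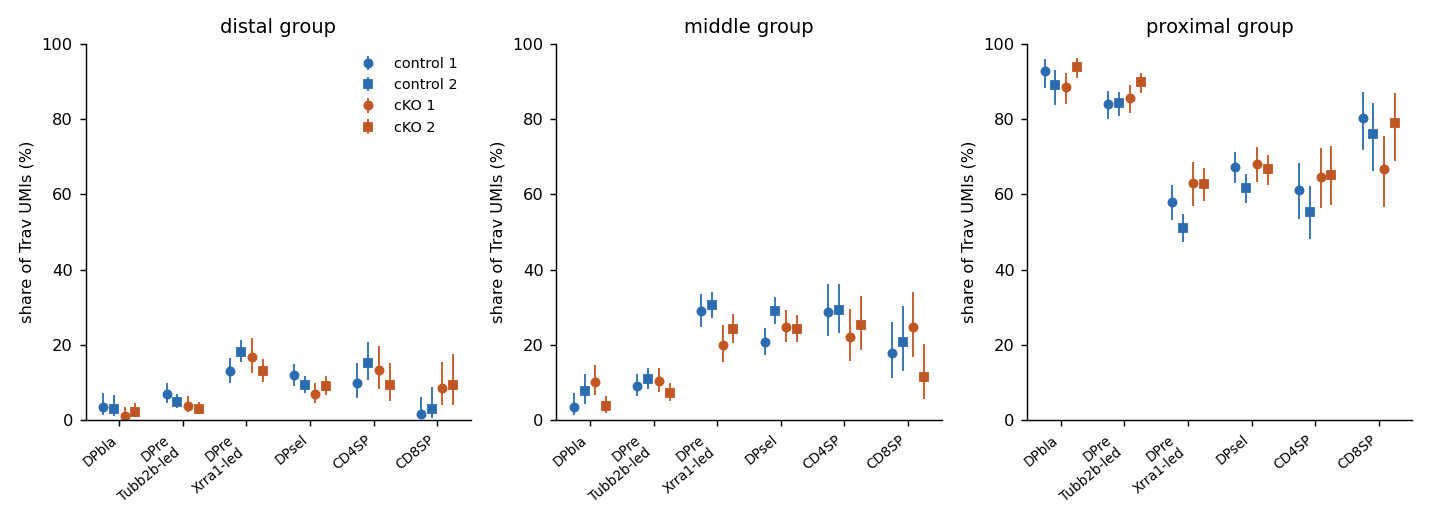
Share of Trav UMIs (percent, vertical axis) in the distal, middle and proximal groups, 1 panel each, for 6 cell groups, with a point for each library and its exact binomial 95% interval (counting error only). The proximal share lies between 88.6% and 94.0% in DPbla and between 51.1% and 63.0% in the Xrra1-led cluster of DPre.

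The 2 main clusters of DPre differed in the use of the locus. This comparison was chosen after the clusters had been seen. In cluster 2, led by Tubb2b, the proximal share was 84.0%, 84.2%, 85.6% and 89.8% in control 1, control 2, cKO 1 and cKO 2. In cluster 1, led by Xrra1, it was 58.0%, 51.1%, 63.0% and 62.8%. The clusters did not overlap in any library, and the proximal share of cluster 1 less that of cluster 2 was -27.2 ± 4.35 points. The middle share was higher by 16.6 ± 4.82 points and the distal share by 10.6 ± 3.40 points, both in 4 of 4 libraries. The distal share itself was 7.02%, 4.89%, 3.92% and 2.89% in cluster 2 and 13.0%, 18.2%, 16.8% and 13.0% in cluster 1. The summed Trav level was lower in cluster 1 in each of the 4 libraries, 106, 105, 81.2 and 90.1 CPM in cluster 2 and 87.9, 94.1, 64.8 and 68.9 in cluster 1. The median depth per cell, 3195 to 3716 UMIs in cluster 2 in the controls and 2453 to 2890.5 in cluster 1, moved with the clusters too.

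Finer bins along the locus gave the same order. Of 9 bins of 14 or 15 features, the one nearest to the J cluster (Trav8-2 to Trav23) held 43.9% of the Trav UMIs of DPbla, 30.6% of those of cluster 2 and 9.17% of those of cluster 1. It held 16.4% in DPsel, 9.65% in CD4SP and 17.0% in CD8SP. The most distal bin (Trav1 to Trav8d-1) held 0.933% in DPbla, 2.89% in cluster 2, 12.1% in cluster 1, 6.65% in DPsel, 9.06% in CD4SP and 3.76% in CD8SP. DPbla was thus the most proximal of these cell groups by both bins, cluster 1 the most distal, and DPsel lay between cluster 2 and cluster 1. These are sums over libraries and are given with no test.

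**Figure D3:**
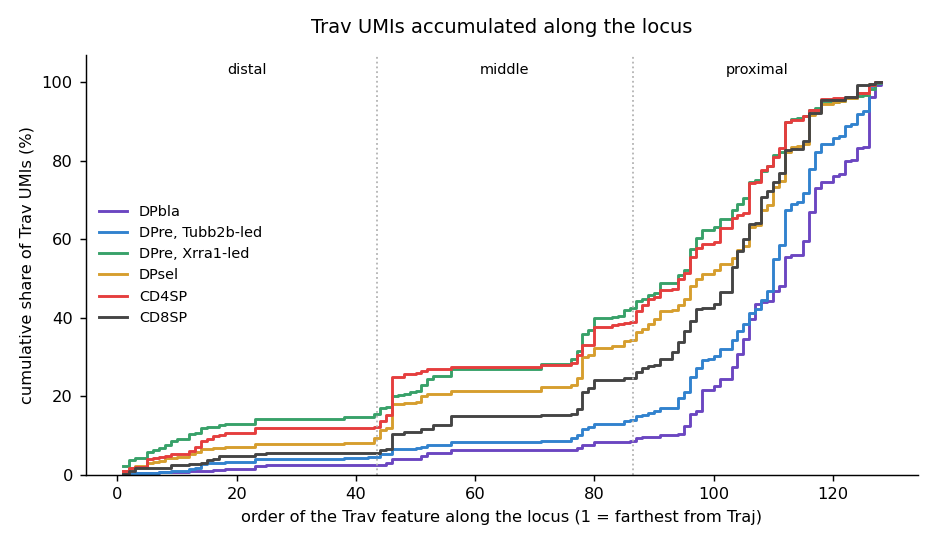
Cumulative percent of Trav UMIs (vertical axis) along the locus from distal to proximal (horizontal axis, feature 1 to 128), 1 line for each cell group, libraries pooled. The line of cluster 1 (Xrra1-led) rises first and that of DPbla last, at the end of the locus.

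Single segments were fitted with all features, cluster 1 against cluster 2 in edgeR with library as a term. Of the 10928 features tested 36.5% were called at an adjusted p under 0.05, many of them genes that had formed the clusters. The Trav features had no part in the clustering. Of these 25 were tested and 15 called, 5 higher and 10 lower in cluster 1. With a library left out the lower calls numbered 8 to 11. The higher calls were 0 of 23 tested without control 1, 1 of 18 without control 2, 4 of 25 without cKO 1 and 1 of 20 without cKO 2, so these rest on few libraries. The counts describe the members that passed the filter on low counts, and nothing is read from them. In 2 or more libraries, the number the filter asks for, 5 of the 25 reached its level only in cluster 1, and all 5 were called higher. Only in cluster 2 it was reached by 12, of which 8 were called lower. A member that passed through 1 cluster was bound to be high there. Of the 6 that reached it in both clusters, 2 were called, Trav4-4-dv10 and Trav6-7-dv9, both lower in cluster 1. The 10 lower calls lay in the proximal group. Of the 5 that were higher, Trav1 is distal, Trav14n-3, Trav16n and Trav14d-3-dv8 are middle, and Trav10 is proximal. Of the 25 tested 1 is distal and 3 are middle. Without the filter 83 were tested and 18 called, where 19.9% of all features were, a share near that of all features. With a mitochondrial limit of 5%, which leaves 9570 cells, 2 members were tested and 1 was called, lower in cluster 1.

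Trav4-4-dv10, a proximal segment that passed the filter in both clusters, had 11.1, 8.28, 3.81 and 7.99 CPM in cluster 2 and 1.6, 2.29, 2.85 and 2.31 in cluster 1, a difference of -1.89 on the log2 scale (SE 0.23) at an adjusted p of 1.77e-10. The segment was lower in cluster 1 in 4 of 4 libraries, least so in cKO 1. Trav6-7-dv9 had 7.69, 10.4, 5.93 and 9.38 CPM in cluster 2 and 7.39, 5.66, 6.41 and 5.15 in cluster 1 (-0.61 on the log2 scale, SE 0.18, adjusted p = 0.00407). In cKO 1 it was higher in cluster 1, and the clusters overlap. The other called members passed the filter through 1 cluster, so that their folds are given as a description.

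Trav1, the first V segment of the locus, had 2, 1, 0 and 0 UMIs in cluster 2 of control 1, control 2, cKO 1 and cKO 2, and 10, 26, 4 and 4 in cluster 1. The fit gave 3.17 on the log2 scale (SE 0.62) at an adjusted p of 2.19e-05. It passed the filter only through cluster 1. Pooled over libraries, the ratio of levels was 11.8 (95% interval 3.78 to 59.4, counting error only). Its level was at most 0.530 CPM in cluster 2 and 2.0, 3.5, 0.950 and 0.543 CPM in cluster 1, and the clusters did not overlap. At the other end, and through cluster 2 only, Trav13-4-dv7 had 4.77, 3.75, 2.76 and 5.73 CPM in cluster 2 and 1.20, 0, 0.237 and 0.678 in cluster 1, or -3.17 on the log2 scale (SE 0.38) at an adjusted p of 6.5e-11. Trav21-dv12 fell from 3.45, 5.91, 7.63 and 6.25 CPM in cluster 2 to 3.20, 0.809, 0.237 and 0.543 in cluster 1 (-2.45 on the log2 scale, adjusted p = 1.03e-09). In control 1 its level was almost the same in both clusters, and the other 3 libraries carried the change. Trav19, Trav17 and Trav8-2, all among the last 14 segments, fell by 2.52, 2.5 and 2.46 on the log2 scale, with adjusted p of 3.35e-06, 1.09e-06 and 6.72e-06. These too, and Trav21-dv12, reached the filter level only in cluster 2.

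**Figure D4:**
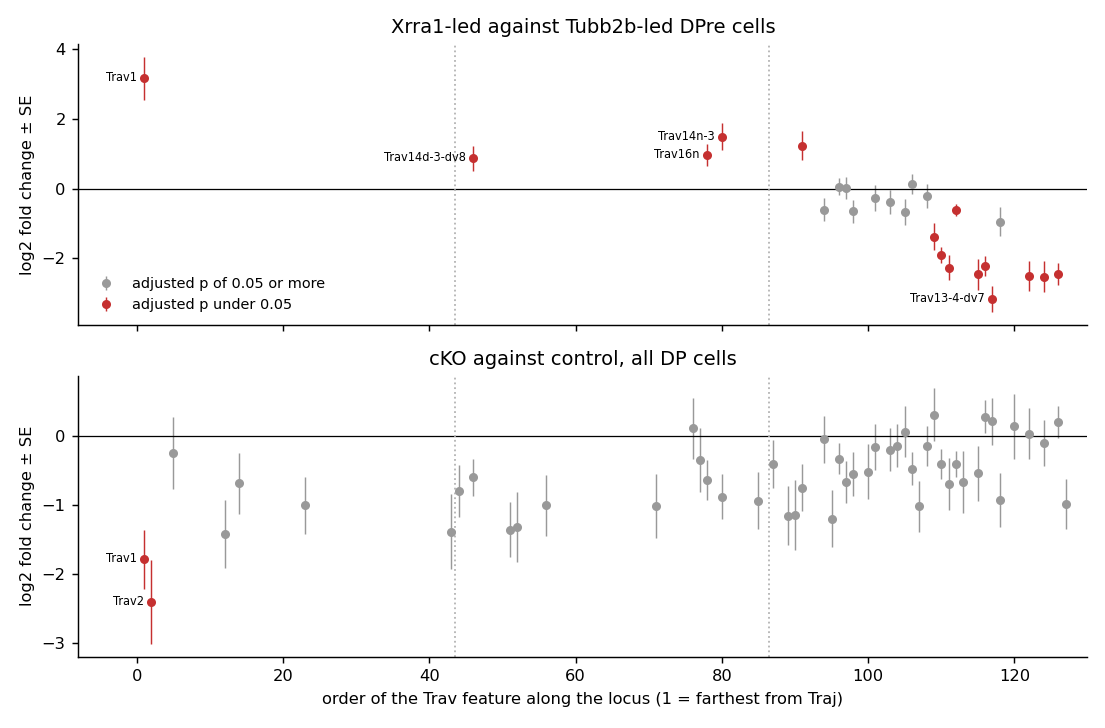
Log2 fold change with its standard error (vertical axis) of each tested Trav feature against its place along the locus (horizontal axis). The upper panel sets cluster 1 against cluster 2 of DPre and the lower panel cKO against control in all DP cells. Called features (adjusted p under 0.05) are red, the dotted lines part the 3 groups of segments, and in the upper panel all 10 called below 0 lie in the proximal group.

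The Trav16 genes moved in opposite directions although their sequences, printed above, differ by 1 or 2 of 90 bases. The proximal copy Trav16 had 3.45, 4.73, 8.69 and 5.91 CPM in cluster 2 and 2.60, 0.674, 1.42 and 0.814 CPM in cluster 1, a log2 fold change of -2.22 (adjusted p = 1.42e-09). The middle copy Trav16n had 1.86, 2.76, 1.27 and 0.521 CPM in cluster 2 and 5.0, 3.5, 1.42 and 3.39 CPM in cluster 1, a log2 fold change of 0.97 (adjusted p = 0.0122). Both differed in their direction in 4 of 4 libraries. Trav16 reached the filter level only in cluster 2 and Trav16n only in cluster 1, so their opposite folds are given as a description. Trav16d-dv11, the middle copy farthest from the J cluster, had 4, 1, 3 and 5 UMIs in cluster 2 and 7, 12, 4 and 7 in cluster 1 and was too low to be tested. Of the Trav14 genes, the middle copies Trav14n-3 and Trav14d-3-dv8 rose by 1.5 and 0.88 on the log2 scale (adjusted p = 0.00199 and 0.0459). The proximal copies Trav14-1 (0.03), Trav14-2 (0.14) and Trav14-3 (-0.94) were not called, so calls in opposite directions were not seen among the Trav14 genes. Trav14n-3 went from 0.265, 1.18, 1.27 and 0.347 CPM to 3.0, 3.5, 1.42 and 1.63 CPM. The uniquely counted windows of Trav16, Trav16n and Trav14n-3 are 77.3%, 65.0% and 70.6% of all, and reads from the rest of these genes cannot be assigned to a copy.

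**Figure D5:**
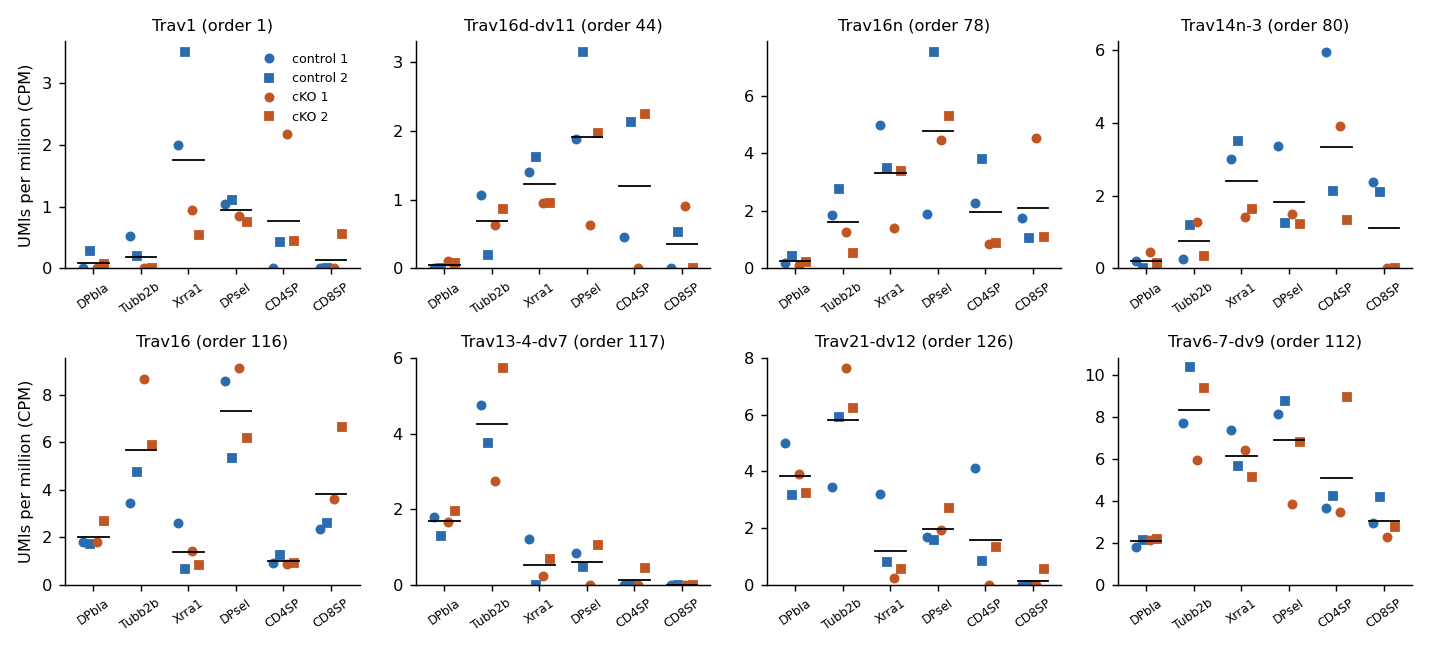
Level in CPM (vertical axis) of 8 Trav features in DPbla, cluster 2 (Tubb2b) and cluster 1 (Xrra1) of DPre, DPsel, CD4SP and CD8SP, with 1 point for each library and a line at the mean of the 4. Trav16 falls and Trav16n rises from cluster 2 to cluster 1 in every library.

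In the fit of all stages, with library as a term and 20 sums, 21 Trav features were tested, 5 middle and 16 proximal. The distal features were too low. Against DPre, 15 of the 21 were called lower in DPbla and none was called higher, where 72.9% of all 11479 features were called. The filter asks for its level in 3 of the 20 sums. Of the 15, only Trav6-7-dv9 reached it in 3 libraries of DPbla and of DPre alike. In DPre only it was reached by 4, and 10 reached it in neither of these stages alone, so that they passed through other stages or through sums of several. The counts and the median are a description of the members that passed. By direction alone, 20 were lower and 1 higher. All 5 middle features were among the 15. Trav6-7-dv9 had 1.80, 2.15, 2.11 and 2.20 CPM in DPbla and 7.46, 7.53, 5.98 and 6.88 in DPre, without overlap (log2 fold change -1.40, adjusted p = 4.82e-07). Trav7-5, another proximal segment, had 1, 1, 0 and 0 UMIs in DPbla and 20, 16, 17 and 31 in DPre (log2 fold change -4.35, SE 0.66, adjusted p = 9.64e-07). Its pooled level in DPre was 31.8 times that in DPbla (95% counting interval 8.52 to 266). Trav3-3, Trav16d-dv11, Trav8n-2 and Trav16n followed, with log2 fold changes of -3.50, -3.30, -3.20 and -2.98. None of these 5 reached the filter level in 3 libraries of DPbla. The median of the 21 was -1.92, against -0.04 over all features. The number called fell to 6 when the summed member counts stood in for the library size, so that only use relative to other V segments was compared. Of 13 members tested in that way 3 were called higher and 3 lower in DPbla, with a median of -0.08, where 90.5% of all features were called. With the mitochondrial limit of 5%, 1 of the 3 members tested was called, lower in DPbla.

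From DPre to DPsel, 6 of the 21 were called higher and none lower, where 60.7% of all features were called. By direction alone, 13 were higher and 8 lower. They were Trav14d-3-dv8, Trav16, Trav16d-dv11, Trav16n, Trav3-3 and Trav14-2. Trav14d-3-dv8 had 2.23, 2.35, 0.978 and 1.54 CPM in DPre and 5.23, 7.37, 5.75 and 4.08 in DPsel, a rise of 1.76 on the log2 scale (SE 0.27, adjusted p = 2.56e-06). Trav16 had 3.01, 2.35, 5.22 and 3.00 CPM in DPre and 8.58, 5.33, 9.15 and 6.19 in DPsel (log2 fold change 1.23, adjusted p = 7.22e-06). For both segments the stages did not overlap. Of the 6, Trav16, Trav16n and Trav14-2 reached the filter level in both stages, and Trav14d-3-dv8 and Trav3-3 only in DPsel. Trac itself stood at 592, 638, 518 and 484 CPM in DPre and at 1160, 1190, 988 and 968 in DPsel, so that Trav UMIs per 100 Trac UMIs went from 15.5 to 8.81. The median log2 fold change of the 21 was 0.14, against 0.01 over all features, and 1 of the 3 tested was called with the mitochondrial limit of 5%. Relative to the summed Trav counts, 4 of 13 were called higher and 2 lower in DPsel, where 61.7% of all features were called.

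The single positive classes hold fewer Trav UMIs, 684 in CD4SP and 399 in CD8SP, against 2134 in DPsel. Their counts of calls are therefore not compared with those above. From DPsel to CD4SP, 1 of the 21 was called, where 35.6% of all features were. This was Trav16, which fell to 0.912, 1.27, 0.866 and 0.895 CPM, a log2 change of -2.59 (SE 0.41, adjusted p = 7.58e-06). In CD8SP it was at 2.36, 2.62, 3.61 and 6.64 CPM, above CD4SP in every library, by 1.99 on the log2 scale (SE 0.53, adjusted p = 0.00422). These CD4SP values rest on 2 or 3 UMIs per library, and Trav16 did not reach the filter level in CD4SP. From DPsel to CD8SP, 5 of the 21 were called, where 47.4% of all features were. Trav12-2 rose by 1.48 on the log2 scale (adjusted p = 0.0108), though in control 1 it had 2 UMIs in CD8SP. Trav21-dv12 (-3.45), Trav4-4-dv10 (-1.36), Trav14d-3-dv8 (-1.17) and Trav6-7-dv9 (-0.84) were lower. Of these 5 only Trav6-7-dv9 reached the filter level in both stages. Trav21-dv12 had 1 UMI in CD8SP over all libraries, where its pooled level in DPsel was 15.3 times as high (95% counting interval 2.60 to 616). Between the single positive classes, 4 of the 21 were called, where 32.5% of all features were. Trav16 was higher in CD8SP, and Trav21-dv12, Trav14d-3-dv8 and Trav14-2 were lower by 3.31, 1.79 and 1.45 on the log2 scale. None of the 4 reached the filter level in both classes. Trav14d-3-dv8 had 6.84, 10.6, 5.20 and 6.27 CPM in CD4SP and 1.77, 3.15, 1.81 and 1.11 in CD8SP, with no overlap. With the mitochondrial limit of 5%, 3 members were tested, none was called from DPsel to CD8SP (1 at an unadjusted p under 0.05), and 1 was called between the single positive classes.

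In shares, CD8SP was more proximal than CD4SP in 4 of 4 libraries, by 13.9 ± 8.48 points. The CD4SP shares were 61.1%, 55.4%, 64.7% and 65.3% in control 1, control 2, cKO 1 and cKO 2, and the CD8SP shares 80.4%, 76.0%, 66.7% and 79.1%. Replicate 1 of the cKO differed by 2.0 points and the other libraries by 13.7 to 20.6. The CD8SP values rest on 399 Trav UMIs in all. From DPsel to CD4SP the proximal share changed by -4.32 ± 2.38 points, lower in 4 of 4 libraries. It reversed to 2.53 points with the mitochondrial limit of 5%.

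Between genotypes most of the Trav segments tested had lower levels in the cKO libraries, and few passed the test. Trac, the constant gene, was lower in all DP cells too, at 643 and 665 CPM in the controls and 490 and 460 in the cKO libraries. Whether Trav fell beyond Trac was not tested. In the sum of all DP cells, 49 members were tested and 41 had a lower and 8 a higher level in the cKO. Of all 12904 features 5.92% were called. Of the members 2 were called, both lower in the cKO, a share near that of all features. An unadjusted p under 0.05 was found for 22 of the 49, against 21.3% of all features. The median log2 fold change was -0.60, against 0 over all features, and was -1.39 for the 7 distal, -0.88 for the 11 middle and -0.41 for the 31 proximal members tested. Without the filter on low counts these medians were -0.79 (22 distal), -0.80 (21 middle) and -0.40 (40 proximal), so the distal median was then no lower than the middle one. Relative to the summed Trav counts in place of the library size, 20 of 47 members were higher and 27 lower, with a median of -0.11, and 3 were called, 2 higher and 1 lower in the cKO, where 63.3% of all features were called. For 32 of the 49 both cKO libraries lay below both controls, which held for 32.7% of all features tested. Of the 49, 13 reached the filter level only in the controls, 35 in both groups and 1 in neither alone. Among the distal members all but Trav5-1 reached it only in the controls. A member that passed in that way was bound to be high in the controls. The counts and medians of the 49 are therefore a description, and nothing is read from the order of the 3 groups of segments. The called members were Trav1 and Trav2, which passed the filter on low counts only through the control libraries, so nothing is read from their place at the distal end of the locus.

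Trav1 was at 0.906 and 1.38 CPM in the DP cells of the controls and at 0.349 and 0.303 CPM in those of the cKO mice. Its log2 fold change was -1.79 (SE 0.43) at an adjusted p of 0.0263. These values rest on 17, 36, 8 and 10 UMIs in 10, 19, 7 and 9 cells. Trav2 was at 0.426 and 1.11 CPM in the controls and at 0.131 and 0.151 CPM in the cKO mice, from 8, 29, 3 and 5 UMIs in 7, 17, 2 and 5 cells. Its log2 fold change was -2.41 (SE 0.61) at an adjusted p of 0.0332. For both segments control 2 was highest, and the groups did not overlap. Fewer cells with a segment and less RNA of it per cell cannot be told apart in these sums. No 90-base window of Trav1 or Trav2 is held by another gene. Without cKO replicate 2 neither was called (adjusted p = 0.108 for Trav1 and 0.0685 for Trav2), without control replicate 2 Trav1 was not (0.26) and Trav2 was too low to be tested, and DESeq2 gave neither an adjusted p. Of the 18 members to which DESeq2 gave one in all DP cells, it called none. Next in size among the members without overlap came Trav7d-3 (-1.42, adjusted p = 0.112), Trav8d-2 (-1.39, 0.152) and Trav10n (-1.36, 0.062). Like Trav1 and Trav2, these reached the filter level only in the controls.

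Of the 10 features with the most UMIs none was called between genotypes in all DP cells. Their log2 fold changes ran from -0.64 for Trav16n (adjusted p = 0.216) to 0.28 for Trav16 (adjusted p = 0.552). Trav21-dv12, close to the J cluster, was at 0.20 (adjusted p = 0.686). Relative to the summed Trav counts in place of the library size, Trav6-7-dv9, Trav4-4-dv10, Trav13-1, Trav3-3 and Trav12-2 changed sign, to between 0.03 and 0.30.

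Within single stages no member was called between genotypes in the fit without a replicate block. With the replicate number as a block, 1 member was called in DPbla, 2 in DPre, 1 in each of clusters 1 and 2, and 12 in all DP cells, where all 12 were lower in the cKO. The share of all features called rose in those fits too, to 10.7% in DPbla, 9.26% in DPre, 6.8% in cluster 2, 6.81% in cluster 1 and 16.7% in all DP cells. The study's methods describe littermates and pairs of mice, but do not say that equal replicate numbers mark a pair. In DPre, 41 were tested, 31 lower and 10 higher in the cKO (20 and 22 of 42 relative to the summed Trav counts), 7 with an unadjusted p under 0.05 against 14.5% of all 11712 features, of which 1.09% were called. The median was -0.31, and 17 of the 41 lay lower without overlap, against 28.3% of all features. In DPbla 8 were tested, 2 with an unadjusted p under 0.05 against 16.0% of all features, of which 2.66% were called. In DPsel 17 were tested, 1 with an unadjusted p under 0.05 against 8.33% of all features, of which 0.0740% were called. In CD4SP 2 were tested, none with an unadjusted p under 0.05, where 0.239% were called. In DN and CD8SP, where 0.0454% and 0.254% of all features were called, no member was high enough to be tested. DESeq2 gave an adjusted p to 10 members in DPre and 26 in DPsel, called none of them, and gave none an adjusted p in DPbla and CD4SP. The interaction of genotype with stage, DPsel against DPre, called none of 29 members, none with an unadjusted p under 0.05, where 0.0340% of all features were called.

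The share of cells in each stage also differed between the libraries of the genotypes, which was not tested. DPbla cells made up 15.5% and 14.4% of the DP cells in the controls and 25.5% and 21.5% in the cKO libraries. Without the clusters of low UMI content these were 12.4% and 11.1% against 18.1% and 16.3%. Cluster 1 made up 59.5% and 62.8% of DPre in the controls and 50.1% and 57.4% in the cKO libraries. Within cluster 1, 14 members were tested and none called, 3 with an unadjusted p under 0.05 against 14.1% of all features, of which 1.36% were called. Both cKO libraries lay below both controls for 7 of the 14, against 28.8% of all features. Trav1 in cluster 1 was at 2.0 and 3.5 CPM in the controls and 0.950 and 0.543 CPM in the cKO libraries, without overlap and not called. Within cluster 2, 18 were tested and none called, 4 with an unadjusted p under 0.05 against 13.4% of all features, of which 1.07% were called. The part of the shift in cell composition in the all-DP result was not tested beyond these values.

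The shares of the groups of segments depended on whether UMIs or cells were counted. In all DP cells the distal share was 9.76% and 10.5% in the controls and 7.07% and 7.45% in the cKO libraries, and the proximal share 72.6% and 66.6% against 75.9% and 76.2%, without overlap for either. Both differences between the genotype means were smaller with the mitochondrial limit of 5%, as given below. Counted by cells in place of UMIs (each pair of a cell and a feature once), the distal share was 8.32% and 9.88% against 7.81% and 8.77%, which overlap, and the proximal share 72.7% and 66.4% against 73.5% and 73.0%. In DPre the distal share by UMIs was 9.93% and 12.3% against 9.39% and 8.20%, and by cells 8.61% and 11.8% against 9.96% and 10.1%. With the mitochondrial limit of 5% the difference between the genotype means in DPre went from -2.35 to 1.61 points for the distal and from 7.45 to 0.190 points for the proximal share. In cluster 1 the distal share was 13.0% and 18.2% in the controls and 16.8% and 13.0% in the cKO libraries, which overlap. The middle share of cluster 1 was 29.1% and 30.7% against 20.1% and 24.2%, without overlap, also by cells (28.7% and 30.3% against 21.1% and 25.6%), and the proximal share differed by 8.35 points, without overlap. With the mitochondrial limit of 5% that difference was -1.71 points. In DPre the mean middle share was 20.5% in the controls and 15.3% in the cKO libraries, without overlap. With 2 libraries a group, the exact permutation test cannot go below p = 0.333, so none is given for these shares.

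Some cells held more than 1 V segment. Of the 5376 cells with a Trav UMI, 1566 had 2 or more UMIs and could show this, and 526 of them (33.6%) had 2 or more Trav features. Both or all were proximal in 267 of these, and the proximal group was joined by the middle in 149 and by the distal group in 39. A further 35 cells held middle features only, 24 distal and middle, 7 distal only and 5 all 3 groups. A thymocyte can carry a join on each of its chromosomes, and a droplet with free RNA or a second cell gives the same count, so these were not told apart.

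The genes of the pathway, from a list of 43, were tested in the same fits. In DPre 35 were tested for genotype in edgeR and none was called, 9 with an unadjusted p under 0.05, against 14.5% of all features. In all DP cells 36 were tested, none was called higher and 4 were called lower in the cKO, where 5.92% of all features were called. An unadjusted p under 0.05 was found for 14 of the 36, against 21.3% of all features. Among them were Trac (log2 fold change -0.41, adjusted p = 0.0121), Trbc1 (-0.31, 0.0468) and Cd247, a signalling chain of the receptor complex (-0.37, 0.0192). Trac stood at 643 and 665 CPM in the controls and 490 and 460 in the cKO libraries. In DPbla 36 were tested and 2 were called, where 2.66% of all features were, among them Cd247, which was lower (log2 fold change -0.41, adjusted p = 0.041). In cluster 2, of 35 tested, only Trbc1 was called (-0.39, adjusted p = 0.0301), and in cluster 1 and DPsel none was, with 11 of 35 and 7 of 34 at an unadjusted p under 0.05, against 14.1% and 8.33% of all features. The recombinase genes Rag1 and Rag2, the terminal transferase Dntt, and all 10 end-joining genes on the list were called in none of these comparisons. Rag1 was at 1470 and 1230 CPM in DP cells of the controls and at 1040 and 1130 in those of the cKO mice.

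Across stages most of these genes could take part in the clustering, so their levels are a description. Rag1 was at 514 to 784 CPM in DPbla, 1740 to 2030 in cluster 2, 2250 to 2840 in cluster 1 and 177 to 266 in DPsel. Rag1 was thus highest in the cluster with the most distal use. Ptcra, the surrogate alpha chain of earlier cells, was at 200 to 325 CPM in DN, 44.2 to 75.1 in DPre and 5.64 to 9.62 in DPsel. Trdc, the delta constant gene that lies between the V and J segments and is deleted by an alpha join, was at 167 to 213 CPM in DPbla, 34.9 to 59.1 in cluster 2 and 29.2 to 33.7 in cluster 1. Trdv1 was at 3.15 to 7.69 CPM in cluster 2 and 0.539 to 2.37 in cluster 1, with no overlap.

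The V segments of the beta chain, 35 Trbv features, served as a comparison from another locus, since the beta chain is assembled before the DP stage. In all DP cells 19 Trbv were tested for genotype in edgeR and none was called, 5 at an unadjusted p under 0.05, with a median log2 fold change of -0.11, against -0.60 for the alpha segments. Of these alpha segments 13 had reached the filter level only in the controls, so the medians are not compared. In DPre 15 Trbv were tested and none was called, 1 at an unadjusted p under 0.05, with a median of 0.14 against -0.31. From cluster 2 to cluster 1 of DPre, 1 of 12 Trbv and 15 of 25 Trav were called, where 36.5% of all features were. Of the called Trav, 5 had reached the filter level only in cluster 1 and 8 only in cluster 2, where they were high. The Trav and Trbv counts are therefore not compared.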

How the data were processed

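Thymocytes of 2 control and 2 cKO mice were profiled with 10x Genomics 3′ v3 kits. The deposited matrices hold filtered UMI counts per cell, which the authors made with Cell Ranger 6.1.1 on mm10 and did not normalize. Cells with fewer than 200 genes, in the highest or lowest 2.5% of UMIs, or with over 10% mitochondrial UMIs were removed as in the study, and the top 5% by Scrublet score were removed as doublets. Cells of all libraries were clustered together in scanpy 1.11.5 on 3000 variable genes, 30 principal components, 20 neighbours and Leiden resolution 1, leaving out 261 receptor segments, and clusters were named from marker lists. Counts were summed per library and class and tested with edgeR 4.0.16 (quasi-likelihood F test, R 4.3.3; filterByExpr, TMM), with Benjamini-Hochberg adjustment over all features tested and calls at an adjusted p under 0.05. Genotype was fitted alone and stages with library as a term. The methods describe littermates, and no source ties equal replicate numbers to a litter, so p-values measure the spread between these samples. Shares carry exact (Clopper-Pearson) 95% intervals for counting error. The members, gene lists and tests were chosen with earlier results of these data known. Named features were those called for genotype, the 10 Trav with the most UMIs, the 5 with the largest genotype fold in all DP cells without overlap, and the 5 called with the largest folds per stage contrast and direction. Any other was named after its values were seen. One gene of the pathway list is counted and not reported by name here. DESeq2 1.42.0, other filters, scalings, clusterings, boundaries of the segment groups and left-out libraries were the alternatives.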

Additional observations from a re-analysis of the deposited data

Results flagged for a closer look

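The distal share of Trav UMIs moved in opposite directions from DPsel to CD8SP in the 2 genotypes. The mean change was -8.11 percentage points in the controls (-10.1 and -6.12) and 0.976 points in the cKO libraries (1.66 and 0.293). The difference between the genotypes was not tested. With the mitochondrial limit of 5% the distal share of CD8SP in the cKO less that in the controls went from 6.48 to -0.375 points. The CD8SP shares rest on 22 distal UMIs of 399 Trav UMIs over the 4 libraries, and on 1.79%, 3.12%, 8.57% and 9.30% in control 1, control 2, cKO 1 and cKO 2. No single distal segment was high enough in CD8SP to be tested.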

How the results depend on the processing

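Of 324 alternative values of shares, 280 moved by less than the spread between libraries, 24 moved by more and 20 changed sign. Of 454 alternative fold changes of named members 399 kept their direction and side of the threshold, 40 kept the direction and lost the call, 7 gained one and 8 changed sign. Of 161 alternative counts of called members 121 stayed within 1.5 times the reported count. The causes of the changes below were not tested, except where fewer cells or features enter by construction. The lower proximal share of cluster 1 than of cluster 2, and of DPre than of DPbla, had the same sign under every alternative run for it. The comparison of clusters 1 and 2 was not run at clustering resolution 1.5 or with receptor segments kept.

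The study's methods describe littermates and pairs of mice, but neither they nor the labels say that equal replicate numbers mark a pair. The correlation of their deviations from the group means was 0.11 to 0.25 over classes, with 2 pairs. With a replicate block, members called for genotype went from 0 to 1 in DPbla, from 0 to 2 in DPre, from 2 to 12 in all DP, all lower in the cKO, and from 0 to 1 in each of clusters 1 and 2. It changed the count in no other genotype comparison. The share of all features called rose from 2.66% to 10.7% in DPbla, from 1.09% to 9.26% in DPre and from 5.92% to 16.7% in all DP.

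DESeq2 was run without the filter on low counts that edgeR used, and so tested another set of members. It called 0 members for genotype in all DP and 32 for DPbla against DPre. The 32 are therefore not set against the 15 called in edgeR. Without a filter on low counts, 3 of 83 members were called for genotype in DPre, 4 of 84 in all DP and 2 of 80 in cluster 1, where 3.09%, 6.67% and 2.37% of all features were. By stage, 42 of 84 were then called for DPbla against DPre (41.6% of all features). Of the same 84, 5 were called for CD4SP against DPsel, 8 for CD8SP against DPsel and 7 for CD8SP against CD4SP. Nothing is read from these counts. With the summed member counts as library size, 2 members were called for genotype in DPre, 1 in cluster 1 and 1 in cluster 2, where 30%, 40.3% and 14% of all features were, 6 for DPbla against DPre and 2 for CD8SP against DPsel. The genotype fold changes in all DP then reversed for Trav6-7-dv9 (0.03), Trav4-4-dv10 (0.03), Trav13-1 (0.11), Trav3-3 (0.30) and Trav12-2 (0.24). At clustering resolution 1.5, 1 member was called for genotype in all DP, 2 for CD4SP against DPsel, 2 for CD8SP against DPsel and 2 for CD8SP against CD4SP. Trav3-3 reversed to 0.10 and the genotype difference of the proximal share in DPbla to -0.393 points. With receptor segments kept in the clustering, 2 were called for CD4SP against DPsel.

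A mitochondrial limit of 5% leaves 9570 cells. It gave 1 called member for genotype in all DP, 1 for DPbla against DPre, 1 for DPsel against DPre, 0 for CD8SP against DPsel, 1 for CD8SP against CD4SP and 1 for cluster 1 against cluster 2. The genotype difference of the distal share went from -2.35 to 1.61 points in DPre, from 6.48 to -0.375 in CD8SP, from -2.88 to -1.15 in all DP, from -0.654 to 3.80 in cluster 1 and from -2.55 to -0.0724 in cluster 2. That of the proximal share went from 0.261 to -2.15 points in DPbla, from 7.45 to 0.190 in DPre, from 6.75 to -3.51 in CD4SP, from -5.33 to -13.1 in CD8SP, from 6.47 to 2.24 in all DP, from 8.35 to -1.71 in cluster 1 and from 3.63 to 1.36 in cluster 2. The proximal share of DPsel less that of DPre became -13.3 points, and that of CD4SP less DPsel 2.53. Genotype in DN could not be fitted under this limit.

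Counted by cells, the genotype difference of the distal share was -0.160 points in DPre, -0.373 in DPsel, 0.582 in CD4SP, -0.814 in all DP, 0.963 in cluster 1 and -0.265 in cluster 2, and that of the proximal share 4.08 in DPre and 0.336 in cluster 2. With segment groups of equal length the distal difference in all DP was -2.44 points. With groups formed from features of at least 10 UMIs it was 0.908 in DPbla, 3.95 in CD8SP and -3.80 in all DP, and the proximal difference 4.58 in DPbla and 3.24 in CD4SP. By stage these groups gave distal differences of -9.83 points (DPbla less DPre), 4.37 (DPsel less DPre), 7.48 (CD4SP less DPsel), -14.7 (CD8SP less CD4SP) and 14.4 (cluster 1 less cluster 2), and proximal ones of -7.36 (CD4SP less DPsel) and -31.6 (cluster 1 less cluster 2). Unthinned, cells with a Trav UMI differed by -4.30 points between genotypes in DPre and -5.45 in all DP, in place of -0.910 and -1.37.

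With 1 library left out in turn, genotype called 0 to 1 members in DPbla, 0 to 2 in DPre, 0 to 3 in all DP (0 without cKO replicate 2, 3 without cKO replicate 1) and 0 to 2 in cluster 1. Stage called 1 to 2 for CD4SP against DPsel, 2 to 6 for CD8SP against DPsel and 9 to 14 for cluster 1 against cluster 2. The distal difference between genotypes ran from -3.86 to 1.33 points in CD4SP and from -3.27 to 1.97 in cluster 1, and that of DPsel less DPre from -1.59 to 0.0898. The proximal difference between genotypes ran from -2.47 to 2.99 points in DPbla and from -11.5 to 0.870 in CD8SP. Trav12-2 ran from -0.43 to 0.12 and Trav3-3 from -0.39 to 0.04. Alternatives on Traj use and on pairs of Trav and Traj gave no value.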

Other observations

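The dv segments, which the delta chain can use as well, made up 39.4% of the Trav UMIs of DPbla cells, 25.8% of those of DPre, 24.4% of those of DPsel, 23.5% of those of CD4SP and 13.8% of those of CD8SP. In DN cells they made up 58.3% of 60 Trav UMIs, of which 88.3% were proximal. These values are sums over libraries with no test, and 6 of the 10 dv features lie in the proximal group.

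The limits of these values are those of the assay. Counts near the 3′ end see few V segments, and segments shared between repeated blocks are not counted. The distal group rests on 740 UMIs in all. With 2 libraries a group, a difference between genotypes has no more than 2 values on each side, and both replicates numbered 1 have the highest shares of droplets over the mitochondrial limit.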
